A study of Mus musculus with 25 samples.

Results

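Serotonin receptor messenger RNAs were examined in 25 single neurons picked from the base of the mouse hypothalamus. The 9 genes described are Htr1a, Htr1b, Htr2a, Htr2c, Htr3a, Htr3b, Htr4, Htr5a and Htr7, taken by symbol from a table of 30903 gene symbols, in which each of them stands on 1 row. The other 5 serotonin receptor genes of the table, Htr1d, Htr1f, Htr2b, Htr5b and Htr6, were used for comparison. All cells belong to 1 group: GFP-positive cells of the arcuate nucleus and median eminence, pooled from 2 adult male RIP-Cre mice of strain (C57BL/6 x DBA)F2 with an average age of 63 days. RIP-Cre mice carry Cre recombinase under a rat insulin promoter, and GFP came from a Cre-dependent virus (AAV-loxSTOPlox-GFP), so the cells are those that were infected, had recombined and were picked by hand. There is no control group, no condition to compare and 1 pooled sample, so no test was possible and no p-value is given. Each cell keeps the number that its label gives.

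Serotonin is released in the hypothalamus by axons of the brainstem raphe nuclei and acts there on feeding, temperature and hormone release. Its receptors fall into classes by what they do in the target cell. The Htr4, Htr6 and Htr7 products couple to the stimulatory G protein Gs and raise cyclic AMP. The Htr2 products couple to Gq and G11 and act through phospholipase C and calcium, the Htr1 and Htr5a products couple to the inhibitory proteins Gi and Go, and the Htr3 products form a ligand-gated cation channel. In the arcuate nucleus, Htr2c on Pomc neurons and Htr1b on Agrp neurons are the receptors best known for their part in the control of food intake.

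The reference coding sequence shows how 6 of the G protein-coupled members resemble each other in the segment behind the third membrane span, where the receptor meets its G protein. Each 45-base stretch below starts at the codons for aspartate, arginine and tyrosine, a triplet that most receptors of this superfamily share, and these codons are in capitals. The stretch of Htr2c holds the bases that adenosine deaminases are known to edit in its messenger RNA, and is shown because the genes of these enzymes were measured in the same cells. The sequences are from GENCODE M21 transcripts on build GRCm38, written in the direction of the messenger RNA.
Htr2c: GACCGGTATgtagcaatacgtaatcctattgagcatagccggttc
Htr2a: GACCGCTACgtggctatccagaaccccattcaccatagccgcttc
Htr7: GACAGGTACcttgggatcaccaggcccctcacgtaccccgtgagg
Htr1b: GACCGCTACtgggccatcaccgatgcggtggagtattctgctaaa
Htr1a: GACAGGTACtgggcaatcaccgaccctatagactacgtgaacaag
Htr5a: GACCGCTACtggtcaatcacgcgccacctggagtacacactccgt

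The Htr2c stretch lies at chrX:147169671-147169715 on the plus strand, and that of Htr2a at chr14:74645089-74645133 on the plus strand. The Htr7 stretch, on the minus strand of chromosome 19, is divided by an intron into 36056706 to 36056710 and 35970025 to 35970064. The Htr1b stretch lies at chr9:81632085-81632129 on the minus strand, that of Htr1a at chr13:105444650-105444694 on the plus strand and that of Htr5a at chr5:27842860-27842904 on the plus strand. All are coding exon sequence. Htr2c and Htr2a, both of the Gq class, had the same base at 33 of 45 positions (73.3%), the highest share of the 15 pairs. Htr1a and Htr1b shared 28 of 45 bases (62.2%), while Htr2c shared 19 of 45 (42.2%) with Htr5a and also with Htr7. These are reference sequences, and the editing state of Htr2c was not analysed here.

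The level that counts as detection was 10 RPKM, where RPKM counts a gene's reads relative to its length in kilobases and to all reads of the cell. Cell 9 was the shallowest, with 892600 estimated reads, the median cell had 1833000 and cell 11, the deepest, had 2969000. At the median depth, 10 RPKM asks for 38.2 reads of the short gene Htr3a but for 171 reads of the long gene Htr2c, so values below the level are also given. All cells had a neuronal profile, with 7 to 10 of 10 neuronal markers at the level in each. Astrocyte, oligodendrocyte precursor, endothelial and fibroblast markers reached the level in 0 cells, and the tanycyte marker Rax and the oligodendrocyte markers Mog, Mobp and Mag were listed at 0 in every cell. In 6 cells (1, 3, 5, 6, 29 and 31) the nuclear noncoding RNA Malat1 was low, at no more than 16.6 RPKM. Its lowest value in the other 19 was 45.9 RPKM, so receptor counts that rest on those 6 are also given without them. No pair of cells had identical values, and the highest Pearson r between any pair was 0.76 over all genes.

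Each of the 9 serotonin receptor genes was found in at most 7 of the 25 cells. Of their 225 values, 9.33% were at 10 RPKM or more, and across all genes 16.1% of values were. Of the 9 genes, 7 reached 10 RPKM in at least 1 cell, against 42.7% of all 30903 symbols. In 3 or more cells the count was 3 of 9 (Htr7, Htr2c and Htr4), against 31.7% of all symbols, and in most cells it was 0 of 9, against 13.5%. The median over the 9 genes was 1 cell, and over all symbols 0 cells. Listed above 0 in any cell were 8 of 9, against 52.9% of all symbols. A total of 16 of 25 cells (64%, exact 95% interval 42.5 to 82.0%) held at least 1 of the 9 genes: 11 cells held 1 and 5 cells held 2. Such intervals reflect only the counting error of a draw of 25 cells. Without the 6 cells low in Malat1, 14 of 19 cells held at least 1.

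**Figure D1:**
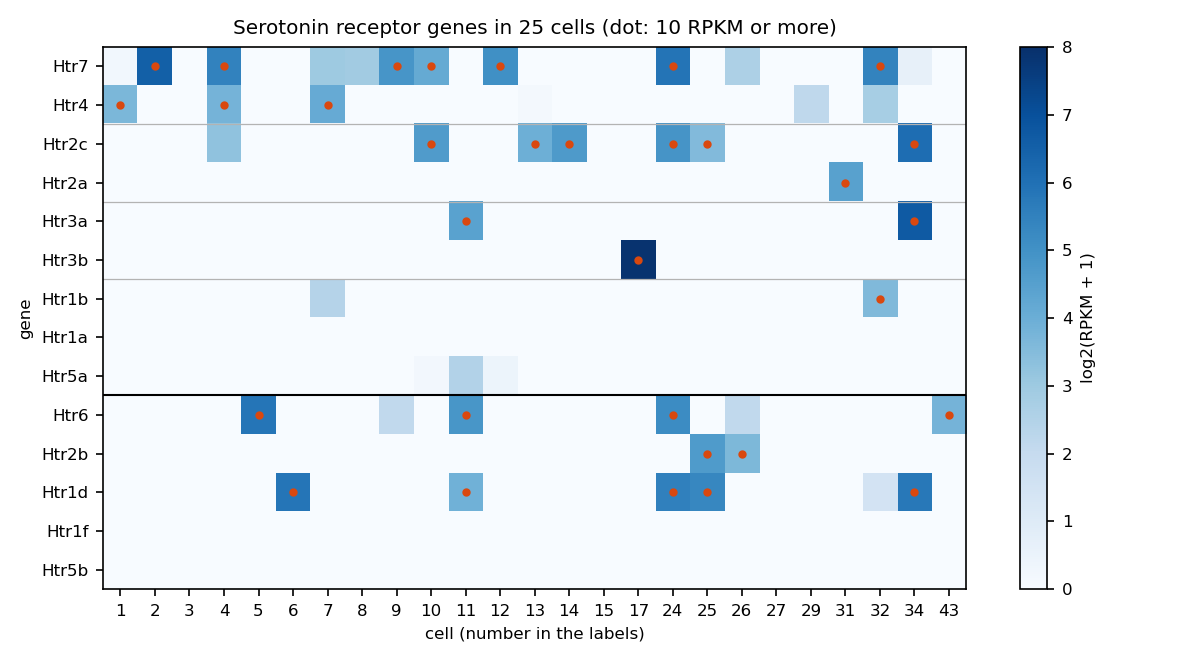
Level of 14 serotonin receptor genes (rows, the 9 listed genes above the black line) in each of the 25 cells (columns), as log2(RPKM + 1), with an orange dot at 10 RPKM or more. Dots are scattered over 16 columns in the upper block, most of them in the rows of Htr7 (7 cells) and Htr2c (6 cells).

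Of the receptor classes, the Gs-coupled pair Htr7 and Htr4 together covered 9 cells (1, 2, 4, 7, 9, 10, 12, 24 and 32), and the Gq-coupled pair Htr2a and Htr2c 7 cells. Htr7, on chromosome 19 from 35958734 to 36057507, was the most frequent of all, in 7 of 25 cells (28%, interval 12.1 to 49.4%). Its values were 90.3 RPKM in cell 2, 58.8 in cell 24, 42.4 in cell 4, 41.4 in cell 32, 32.0 in cell 12, 27.8 in cell 9 and 16.7 in cell 10. A further 5 cells were listed below the level, at 6.88 RPKM in cell 7, 6.36 in cell 8, 5.10 in cell 26, 0.55 in cell 34 and 0.18 in cell 1, and the other 13 were at 0. The values of cells 34 and 1 correspond to 2.08 and 0.998 estimated reads. Cells 7, 8 and 26 lie far above this, so that 10 cells had at least 10 estimated reads of Htr7.

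Htr4, on chromosome 18 from 62324204 to 62496577, was lower. It reached the level in 3 cells (12%, interval 2.55 to 31.2%), with 16.3 RPKM in cell 7, 13.0 in cell 4 and 11.8 in cell 1. Values of 5.87 RPKM in cell 32, 3.48 in cell 29 and 0.12 in cell 13 lay below it. Its 6 cells included 4 in which Htr7 was also listed above 0 (cells 1, 4, 7 and 32), but only cell 4 held both at 10 RPKM. Cell 1 is low in Malat1, and without such cells Htr4 was at the level in 2 of 19 cells. No cell reached 20 RPKM of Htr4, whereas 6 cells did so for Htr7. The third gene of this class, Htr6, was found in 4 cells (5, 11, 24 and 43) at up to 56.6 RPKM, and shared 1 of its 4 cells with Htr7 and 0 with Htr4. Its highest value was in cell 5, which is low in Malat1; without such cells Htr6 was in 3 of 19 cells at up to 35.3 RPKM.

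Among the Gq-coupled receptors, Htr2c was the frequent gene. Htr2c lies on the X chromosome from 146962513 to 147197277 and has the longest exon sequence of the 9, 9328 bases. The level was reached in 6 of 25 cells (24%, interval 9.36 to 45.1%). The values were 68.4 RPKM in cell 34, 28.7 in cell 24, 24.9 in cell 14, 24.2 in cell 10, 14.6 in cell 13 and 10.7 in cell 25. Cell 4 held 8.59 RPKM, just below the level but equal to 153 estimated reads, and the other 18 cells were listed at 0. Each value of Htr2c above 0 rested on at least 127 estimated reads. None of its 7 cells was low in Malat1.

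Htr2a, the target of many antipsychotic and hallucinogenic drugs, was found in cell 31 alone, at 20.9 RPKM, and the other 24 cells were at 0. Cell 31 has Malat1 at 0, so Htr2a was in 0 of the 19 cells without low Malat1. Of the same class, Htr2b reached the level in 2 cells, at 24.2 RPKM in cell 25 and 11.5 in cell 26. Exons of Htr2b overlap exons of Psmd1 on the opposite strand, and Psmd1, a proteasome subunit gene, was detected in 24 cells. Since the libraries mark no strand, reads from the exon sequence that the pair shares cannot be told apart. Htr2b was listed above 0 only in cells 25 and 26.

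The channel subunit genes were rare and high. Htr3a, which encodes the subunit that can form a channel alone, was detected in 2 cells, at 103 RPKM in cell 34 and 20.5 in cell 11. Htr3b encodes a subunit that needs Htr3a to reach the cell surface in cultured cells. Cell 17 held it at 238 RPKM, the highest value of the 9 genes in any cell and equal to 1213 estimated reads, and the other 24 cells were at 0. Htr3a was listed at 0 in cell 17, and Htr3b was at 0 in cells 11 and 34. The genes are neighbours on the minus strand of chromosome 9, Htr3a from 48899213 to 48911099 and Htr3b from 48935008 to 48964990, and shared 0 cells. With 2 cells and 1 cell, such an absence of overlap carries little information.

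Receptors of the inhibitory class were almost undetected among the 9 genes. Htr1b, an inhibitory receptor known at axon terminals, was detected in 1 cell, cell 32, at 11.0 RPKM (73.7 estimated reads). Cell 7 held 4.33 RPKM, below the level. D430036J16Rik, whose exons overlap those of Htr1b on the opposite strand, was at the level in 1 cell, at 27.4 RPKM. Reads from exon sequence that Htr1b shares with this antisense partner cannot be told apart, as the libraries mark no strand. Htr5a peaked at 4.61 RPKM in cell 11, with 0.35 RPKM in cell 12 and 0.16 in cell 10, the last 2 being equal to 2.89 and 1.92 estimated reads. Htr1a, the receptor through which serotonin neurons inhibit themselves, was listed at 0 in all 25 cells. The exact interval of 0 of 25 cells reaches 13.7%, and the limit of 3 counts in 25 cells is 12%. In contrast, Htr1d of the same class, which was not among the 9, was found in 5 cells (20%, interval 6.83 to 40.7%) at 13.9 to 57.0 RPKM, namely cells 6, 11, 24, 25 and 34. Cell 6, its highest, is low in Malat1, and without such cells Htr1d was in 4 of 19 cells at up to 53.4 RPKM. Htr1f and Htr5b were listed at 0 throughout.

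**Figure D2:**
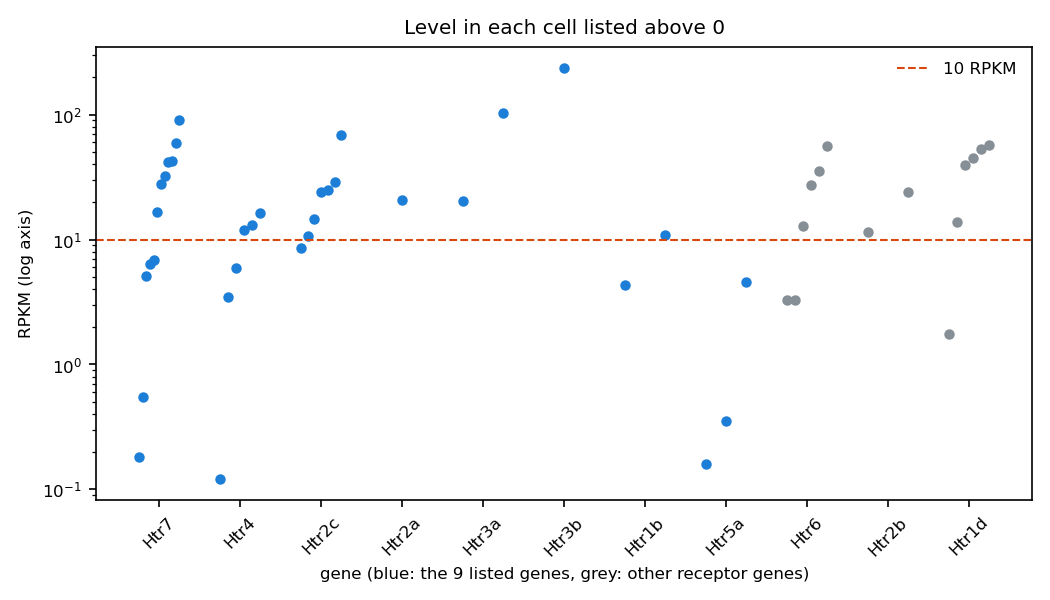
RPKM on a log axis of each serotonin receptor gene in every cell where it was listed above 0, 1 dot per cell, with the level of 10 RPKM as a dashed line. Htr7 spans 0.18 to 90.3 RPKM, the 7 Htr2c values lie between 8.59 and 68.4 RPKM, and the single Htr3b value is 238 RPKM.

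By number of cells, the order was Htr7 (7 cells), Htr2c (6), Htr4 (3), Htr3a (2), then Htr1b, Htr2a and Htr3b (1 each), and Htr5a and Htr1a (0). No gene in this order was separated from another by its exact interval. Even that of Htr7 (12.1 to 49.4%) overlapped that of Htr5a and Htr1a (0 to 13.7%). By the highest value per length the order was another one: Htr3b led at 238 RPKM, followed by Htr3a, Htr7, Htr2c, Htr2a, Htr4, Htr1b and Htr5a. Of the 34 values of the 9 genes that were above 0, 61.8% were at 10 RPKM or more, and among all genes the share of values above 0 at that level was 67.4%.

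**Figure D3:**
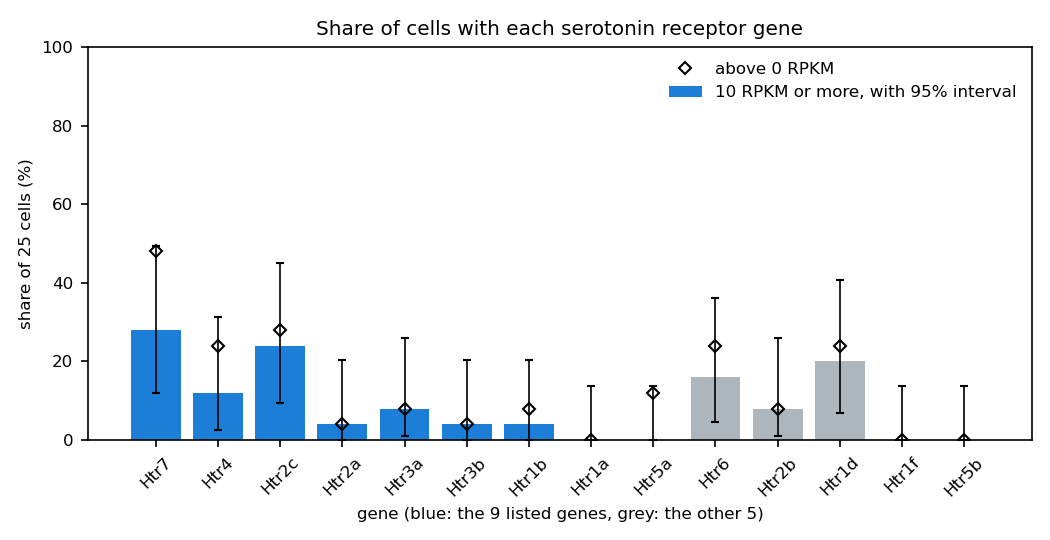
Share of the 25 cells, in percent, in which each gene was at 10 RPKM or more (bars, with exact 95% intervals) or above 0 (diamonds), with the 9 listed genes in blue and the other 5 in grey. The bars of Htr7 (28%) and Htr2c (24%) are the tallest, and their intervals overlap each other and that of Htr4.

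Combinations of receptors in 1 cell were counted at 10 RPKM. With each gene in at most 7 of 25 cells, a low number of shared cells carries little information. Among the 7 genes at the level in any cell, 4 of 21 possible pairs shared a cell. The most of the 9 genes in 1 cell was 2 at this level. It was 3 at 1 RPKM, at 5 RPKM and at 10 estimated reads. Htr7 and Htr2c shared cells 10 and 24, which is 28.6% of the Htr7 cells and 33.3% of the Htr2c cells. Htr7 met Htr4 in cell 4 and Htr1b in cell 32, and Htr2c met Htr3a in cell 34. When the other 5 genes were added, 13 of 45 pairs of detected genes shared a cell, and the most cells shared by any pair was 3, by Htr2c and Htr1d (cells 24, 25 and 34). That is 50% of the Htr2c cells and 60% of the Htr1d cells. Both Htr3a cells, 11 and 34, held Htr1d as well.

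Cell 24 carried the largest set, with Htr7, Htr1d, Htr6 and Htr2c at 58.8, 44.6, 35.3 and 28.7 RPKM. In 5 cells none of the 14 genes was at the level (cells 3, 8, 15, 27 and 29), and in cells 3, 15 and 27 all 14 were listed at 0. The number of the 9 genes at the level did not follow depth closely over the 25 cells (Pearson r = -0.24 with estimated reads and 0.17 with the number of genes at the level). Each cell is 1 library and the mice were pooled, so these are descriptions.

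**Figure D4:**
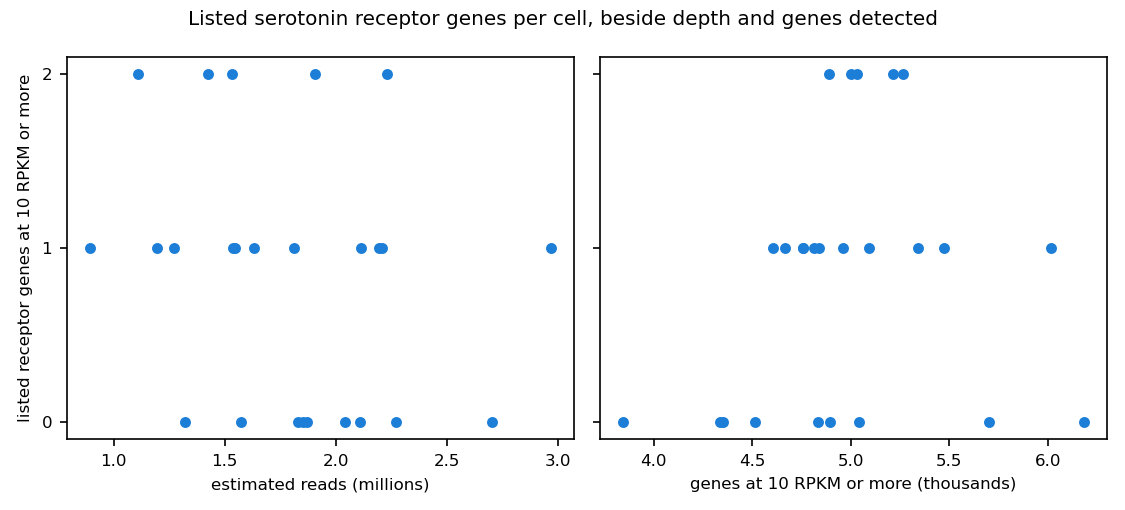
Number of the 9 listed serotonin receptor genes at 10 RPKM or more in each of the 25 cells, against estimated reads (left) and against the number of genes at 10 RPKM or more (right), with the units on the axes. The 5 cells with 2 genes and the 9 cells with 0 genes spread over overlapping ranges on both axes.

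Most cells with a receptor gene were GABA neurons by their enzymes. Gad1 or Gad2, the genes of GABA synthesis, was detected in 15 of the 16 cells that held any of the 9 genes, and in 24 of 25 cells overall. All 7 Htr7 cells and all 6 Htr2c cells had Gad1. The exception was cell 7, which held Htr4 beside 149 RPKM of Slc17a6, the vesicular glutamate transporter gene. Slc32a1, the vesicular GABA transporter gene, was in 10 of the 25 cells, among them 5 of the 7 Htr7 cells and 3 of the 6 Htr2c cells.

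Peptide and dopamine genes overlapped the receptor cells unevenly. Pomc, the melanocortin precursor, was in 4 of the 7 Htr7 cells (9, 10, 12 and 32) and in 3 of the 6 Htr2c cells (10, 13 and 14), which is 40% and 30% of the 10 Pomc cells. In these Htr7 and Htr2c cells Pomc ran from 10.96 RPKM in cell 14 to 50.4 in cell 10. The Pomc cells with none of the 9 genes at the level were cells 29 (481 RPKM), 43 (232), 8 (70.2) and 26 (12.55). Cartpt, detected in 10 cells in all, was in the same 4 Htr7 cells as Pomc, and in 2 of the Htr2c cells. Agrp, which encodes the melanocortin antagonist, was in 0 of the 7 Htr7 cells and in 2 of the 6 Htr2c cells (14 and 34), and overall in 9 cells. In the Htr1b cell, cell 32, Agrp was listed at 0. Th, the rate-limiting enzyme of dopamine synthesis, was in 8 cells. Of those, 3 held any of the 9 genes, namely Htr4 in cell 1, Htr3a in cell 11 and Htr7 in cell 12. No Htr2c cell had Th. Trh, thyrotropin-releasing hormone, was detected in 2 cells, 14 and 25, and both were Htr2c cells. No chance range was set beside these overlaps, and so few cells per gene leave them as counts.

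Genes that make and clear serotonin were detected unevenly. Tph1 and the uptake transporter gene Slc22a3 were listed at 0 in every cell. The neuronal serotonin transporter Slc6a4 stood at 0.23 RPKM in 1 cell. Tph2, the neuronal enzyme that starts serotonin synthesis, was detected in cell 34 at 14.1 RPKM, the cell that also held Htr3a, Htr2c and Htr1d, and stood just below the level at 9.95 RPKM in cell 32, the Htr1b cell. Ddc, the decarboxylase of both pathways, was in 18 cells, the vesicular monoamine transporter Slc18a2 in 9, the monoamine oxidases Maob in 13 and Maoa in 11, and the low-affinity uptake transporter Slc29a4 in 16. Of the 10 genes of the list, 6 were at the level in any cell and 3 in most cells.

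G protein genes were detected in most cells, and the genes downstream of them unevenly. All 9 G protein alpha subunit genes were at the level in some cell and 8 in most cells, with a median of 23 cells per gene. Gnas, which encodes Gs, was in 25 of 25 cells at a median of 122 RPKM, and so in every Htr7 and Htr4 cell. Gnai2 and Gnao1 of the inhibitory class were also in all 25. Gnaq was in 20 cells and Gna11 in 24, and 5 and 6 of the 6 Htr2c cells held them. Downstream of Gq the counts were lower, with a median of 3.5 cells over 12 genes: the phospholipase genes Plcb1 and Plcb4 were in 6 and 5 cells. Trpc5, a cation channel gene linked to Htr2c signalling in mouse Pomc neurons, was in 4 cells, and 3 of them were Htr2c cells (14, 24 and 25). Downstream of Gs the median was 8.5 cells over 14 genes, with the protein kinase A genes Prkar1a, Prkacb and Prkaca in all 25 cells and the cyclase Adcy3 in 16. Of the potassium channel genes opened by inhibitory receptors, Kcnj9 was in 14 cells and Kcnj3 in 6, and Kcnj6 and Kcnj5 were at the level in 0.

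Partners of the receptors were mixed. Adar, a deaminase that edits Htr2c messenger RNA, was in 18 cells, 3 of them Htr2c cells. Adarb1, the second such enzyme and one named with its values known, was in 4 cells, and 2 of these (14 and 25) were Htr2c cells. Over the Htr2c cells, Adar or Adarb1 was therefore at the level in cells 14, 24, 25 and 34 but in neither cell 10 nor cell 13. Below the level, Adar stood at 4.92 RPKM in cell 10 and 1.39 in cell 13, and Adarb1 at 0.24 in cell 13. S100a10, whose product binds Htr1b and Htr4 receptors, was in 13 cells, which included cells 1 and 4 of the 3 Htr4 cells and not the Htr1b cell. Ric3, a chaperone of the channel-type receptors, was in 14 cells.

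**Figure D5:**
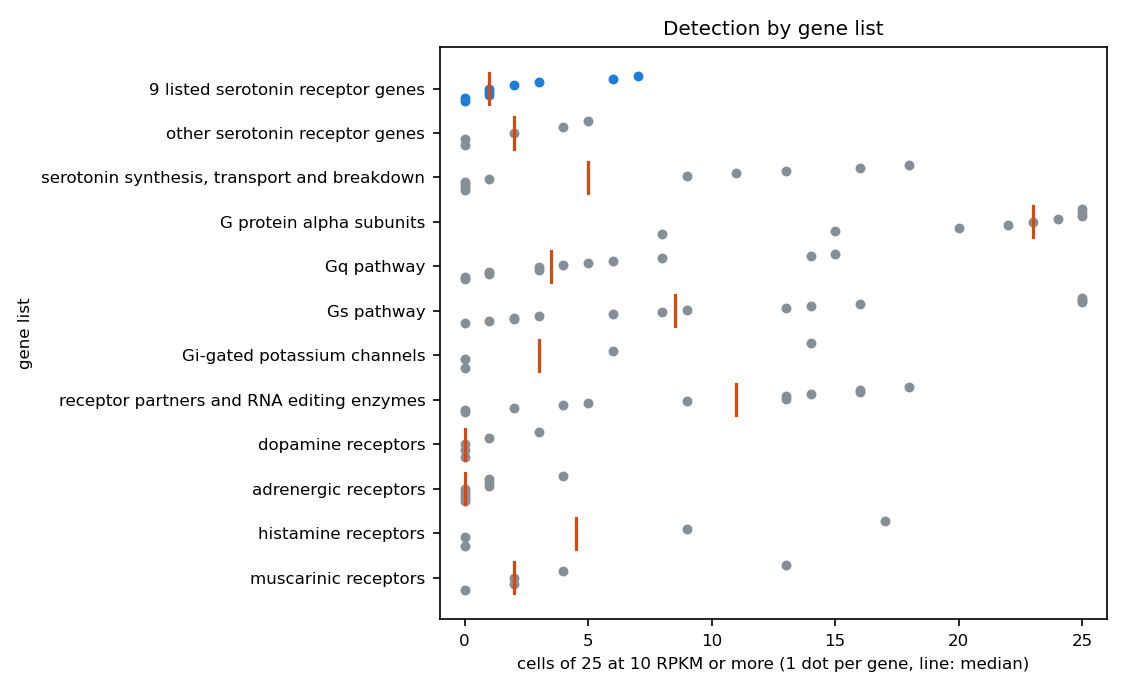
Number of cells of 25 in which each gene of 12 lists was at 10 RPKM or more, 1 dot per gene, with the list median as an orange line. The median is 1 cell for the 9 listed serotonin receptor genes and 23 cells for the G protein alpha subunits, and Hrh3 in the histamine list reaches 17 cells.

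Other monoamine and acetylcholine receptor families were read in the same way. Beside the 7 of 9 serotonin receptor genes at the level in any cell, or 10 of 14 with the other 5, the most frequent being Htr7 in 7 cells, these gave both lower and higher counts. Of the dopamine receptor genes 2 of 5 were at the level in any cell, led by Drd2 in 3 cells. For adrenergic receptors the count was 4 of 9, led by Adra1a in 4 cells. Histamine receptors reached 2 of 4, with the histamine autoreceptor Hrh3 in 17 cells and Hrh1 in 9, and muscarinic receptors 4 of 5, with Chrm1 in 13. No gene of the serotonin family reached the 13 cells of Chrm1. The families were not tested against each other.

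Genes whose pattern was most like that of a receptor were sought for the 3 genes found in at least 3 cells, by Pearson r of log2(RPKM + 1) over the 25 cells among 9783 genes at the level in at least 3 cells. For Htr2c these were Hmx3 (r = 0.79), a homeobox transcription factor gene detected in 4 cells that were all Htr2c cells, Nfix (0.73), detected in 8 cells that included all 6, and Otulin (0.72), in 3 cells that were all Htr2c cells. For Htr4 they were Zfp946 (0.73), Otof (0.71) and Fiz1 (0.70), which shared 2, 3 and 2 of the 3 Htr4 cells. For Htr7 they were 0610009O20Rik (0.75), Atad5 (0.65) and Fcho1 (0.63), which shared 5, 3 and 7 of the 7 Htr7 cells. The points share a library preparation and many values of 0, and a search over 9783 genes returns high values for some genes in any case. Other settings gave partly other genes.

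The promoters of the genes differed in base composition. RefSeq promoters (GRCm38.p6, windows of 300 bases around RefSeq's start of the gene, which can differ from the GENCODE start, as it does for Htr5a) were found for 7 of the 9 genes. Htr7 had the highest G and C content, 81% with 46 CpG dinucleotides, and Htr3b the lowest, 44.3% with 2. Htr2c had 56.3% with 5, Htr5a 61.3% with 14, Htr1b 53.3% with 11, Htr1a 52.3% with 7 and Htr2a 52% with 6. Over all 32851 promoters the median was 52.7% with 7 CpG dinucleotides. GGGCGG, searched on both strands, was present in 2 of the 7 (Htr1a and Htr2a) and in 35.7% of all promoters, and TATAAA, searched on the sense strand, was in 0 of 7 and 8.32% of all. These matches describe the windows only.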

How the data were processed

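Per the labels' protocols, cells were picked by hand from papain-digested tissue, frozen singly and turned into Smart-Seq2 libraries with Nextera XT. No doublet caller was run on these singly picked cells. These libraries carry no molecular identifiers, so reads are not independent molecules. The authors deposited 1 table, whose values are RPKM by their form (decimals whose low values fall on whole-read steps) although its name speaks of counts. The submitters' processing notes name featureCounts 1.4.6, TopHat2 2.0.14, SAMtools 0.1.19, Picard 2.5.0 and bcl2fastq, with mm10 and GRCm38 as builds. The annotation and each tool's role are not stated in those notes.

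Of 33082 rows, 26 with date numbers as names were left out, and for 755 repeated symbols only the row of highest sum was used. GENCODE M21 gave positions and exon lengths, for 22754 symbols (73.6%). Depth was the position of the 1-read step of RPKM times exon length, and was off by at most 0.996% in 12 simulated cells of 22754 genes. These lengths may differ from the authors' lengths: with the same lengths RPKM times length would sum to the read total, and it came to between 1.38 and 1.47 times that, so read numbers are estimates. For the 5 values of the receptor genes below 4 reads, estimates lay within 8.80% of a whole number. The like-pattern search placed a planted noisy copy first for 100% of 200 genes. The copies carried little noise, so this checked the ranking step only and says nothing about the genes named.

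Shares carry Clopper-Pearson 95% intervals and a count of 0 the limit of 3 in 25 cells. Python 3.11.15, numpy 2.4.6, pandas 2.3.3 and scipy 1.17.1 were used. The receptor genes and all lists were chosen with earlier results of these data known. From each list, up to 6 genes in most cells, those in 0 cells and all cell context genes (transmitter and peptide genes) could be named; Adarb1 and overlapping genes were named after their values were seen. Some genes of the marker lists are not reported here.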

Additional observations from a re-analysis of the deposited data

How the results depend on the processing

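The counts of cells, the number of receptor genes found and the number per cell were recomputed with detection set at above 0, 1, 5 and 20 RPKM, at 10 estimated reads, after rescaling every cell to the same sum, without the 6 cells low in Malat1, and with repeated rows summed. Counts of cells left the exact interval of the value reported, or the number of genes found or per cell changed by over 1.5 times, under 2 of these 8 settings. Summing repeated rows could not change any of these counts, since each of the 9 genes stands on 1 row. Small counts changed by over 1.5 times inside their wide intervals under others. Above 0, Htr7 was in 12 cells, Htr4 in 6, Htr5a in 3 and Htr1b in 2. At 1 RPKM and at 10 estimated reads, Htr4 was in 5 cells, Htr1b in 2 and Htr5a in 1. After rescaling, Htr1b was in 2 cells and Htr5a in 1. The common sum was larger than the RPKM sum of any cell (357103 to 447294), and the level stayed at 10. Rescaling therefore also lowered the level below 10 RPKM in every cell, and is not a check of scaling alone. The values it added for these genes were 4.33 RPKM of Htr1b in cell 7 and 4.61 RPKM of Htr5a in cell 11. At 20 RPKM, Htr1b and Htr4 were in 0 cells and the median of the 9 genes per cell was 0, because the level itself is higher than their values. Without the cells low in Malat1, Htr2a was in 0 cells, since its 1 cell is among those left out. Over all 8 settings, Htr7 was in 6 to 12 cells, Htr2c in 4 to 7 and Htr4 in 0 to 6. The genes most like a receptor were less stable. Of the first 3 for Htr2c, 1 remained with a pseudocount of 0.1 RPKM, with Spearman rho, without the filter on low values and without the cells low in Malat1. For Htr4, 1 remained with Spearman rho, 0 without the filter and 1 without those cells, and for Htr7 1 remained with pseudocounts of 0.1 and 10 RPKM, with Spearman rho and without those cells. Hmx3 stayed first for Htr2c except without the filter, where Gprin3 was first. The cause was not tested. No paired analysis was possible because there is 1 group. Values of 1 to 3 reads cannot separate a low level from stray reads.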
